A study of Mus musculus with 9 samples.

Results

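Whole livers of mice given thioacetamide (TAA) with vehicle were set against livers of control mice by RNA sequencing, 3 libraries a group, which is 6 of the 9 libraries in the series. Of the 34745 genes in the deposited count table, 13701 had enough reads to be tested. The mice labelled vehicle-treated TAA drank water with 400 mg/L TAA for 16 weeks and received vehicle daily over the last 4 of those weeks, and the other 3 livers come from mice labelled control. All animals are labelled C57BL/6, an inbred laboratory strain. The libraries held 14386196 to 15959865 counted reads in TAA livers and 13803697 to 14974495 in control livers. The labels do not say whether control mice received vehicle, and they give neither age nor sex. They number the samples without stating that each came from a separate animal, so p-values here measure only the spread between these samples. Most room is given below to gene families and functions outside 8 lists of commonly described genes (matrix and fibrosis, immune, zonation and hepatocyte, bile duct and fetal, cell cycle and p53, NRF2 targets, clock and circulating lipids, mitochondrially encoded and globin).

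Thioacetamide is a small sulphur compound that is harmless until liver cytochrome P450 enzymes oxidise it to reactive products that bind proteins in the hepatocytes that made them. Hepatocytes around the central vein carry most of these enzymes and are damaged first, and long exposure is used in rodents as a model of scarring with bile duct overgrowth. A whole liver sample mixes hepatocytes with bile duct, stellate, endothelial and immune cells. In such bulk samples, fewer cells of a type and less RNA per cell cannot be told apart.

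The liver origin of the libraries was plain from 8 hepatocyte genes, whose summed level was 95100 to 115000 CPM (counts scaled to 1000000 reads a library) in TAA livers and 107000 to 133000 CPM in control livers, with 3 of the 8 lower after TAA. All 7 tested bile duct markers rose (summed range 221 to 510 CPM in TAA livers, 49.8 to 62.4 CPM in control livers), as did all 8 stellate cell and fibroblast markers (395 to 624 CPM in TAA livers, 162 to 193 CPM in control livers). Of 8 leukocyte markers 7 rose, and TAA library 1 stood highest (138 to 408 CPM in TAA livers, 72 to 81.9 CPM in control livers). All 6 markers of dividing cells rose (29.1 to 42.8 CPM in TAA livers, 6.63 to 7.59 CPM in control livers). Of 8 endothelial markers none rose and 1 fell, namely Kdr (log2 change -0.49, SE 0.17, adjusted p = 0.0356), and its call was lost with library-total scaling and without any 1 library other than control library 3. The part of these shifts in cell make-up in the results below was not tested.

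A gene is said to have risen or fallen where edgeR's quasi-likelihood test gave an adjusted p (Benjamini-Hochberg, over all 13701 genes) below 0.05. After TAA 3161 genes rose (23.1%) and 2792 fell (20.4%). Past a 2-fold change, tested as such, 909 were higher (6.63%) and 360 lower (2.63%). Every TAA library lay above every control library in 29.4% of genes and below them in 27.4%. Most genes named from families were taken by lowest p, so a lack of overlap within them follows largely from that choice. The balance of the directions depended on the scaling. Levels below are CPM scaled by trimmed mean of M-values (TMM), which puts the median log2 change of all genes at 0.01. Scaling by library totals moved that median to 0.41, and the split became 5756 higher (42.0%) and 1156 lower (8.44%). Counts of a family's members are therefore given both ways, and a family is read against all genes. Against the median log2 change of all genes, the medians of 88 of the 89 families lay on the same side under both scalings. This was close to fixed in advance, since a change of scaling shifts all genes by nearly the same amount. The 89 families described hold 4954 genes, of which 3331 passed the filter on low counts. A gene can pass that filter through 1 group alone and then had to differ, so family counts are descriptions of the tested members. Among the genes outside the 8 lists of commonly described genes, 2609 of 12483 rose and 2549 fell (20.9% and 20.4%), whereas 552 of the 1218 genes on those lists rose and 243 fell (45.3% and 20%).

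The direction of change went with the level of expression, although the lowest quintile includes genes that passed the filter through 1 group alone. In the quintile of genes with the lowest mean level, 36.2% rose and 7.44% fell, and in the highest quintile 15.8% rose and 36% fell. Quintile shares are given with TMM alone, and the balance of the directions depended on the scaling. More genes were detected after TAA: at a common depth of 13803697 reads, 17432, 17094 and 17116 genes had a read in TAA livers and 15851, 15809 and 15751 in control livers. The 100 most abundant genes took 40.7 to 43.3% of reads in TAA livers and 45.9 to 48.7% in control livers. The TAA livers were less alike (Pearson r of log CPM across genes 0.968 to 0.977) than the control livers (0.98 for every pair), and r was 0.877 to 0.921 between groups.

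**Figure D1:**
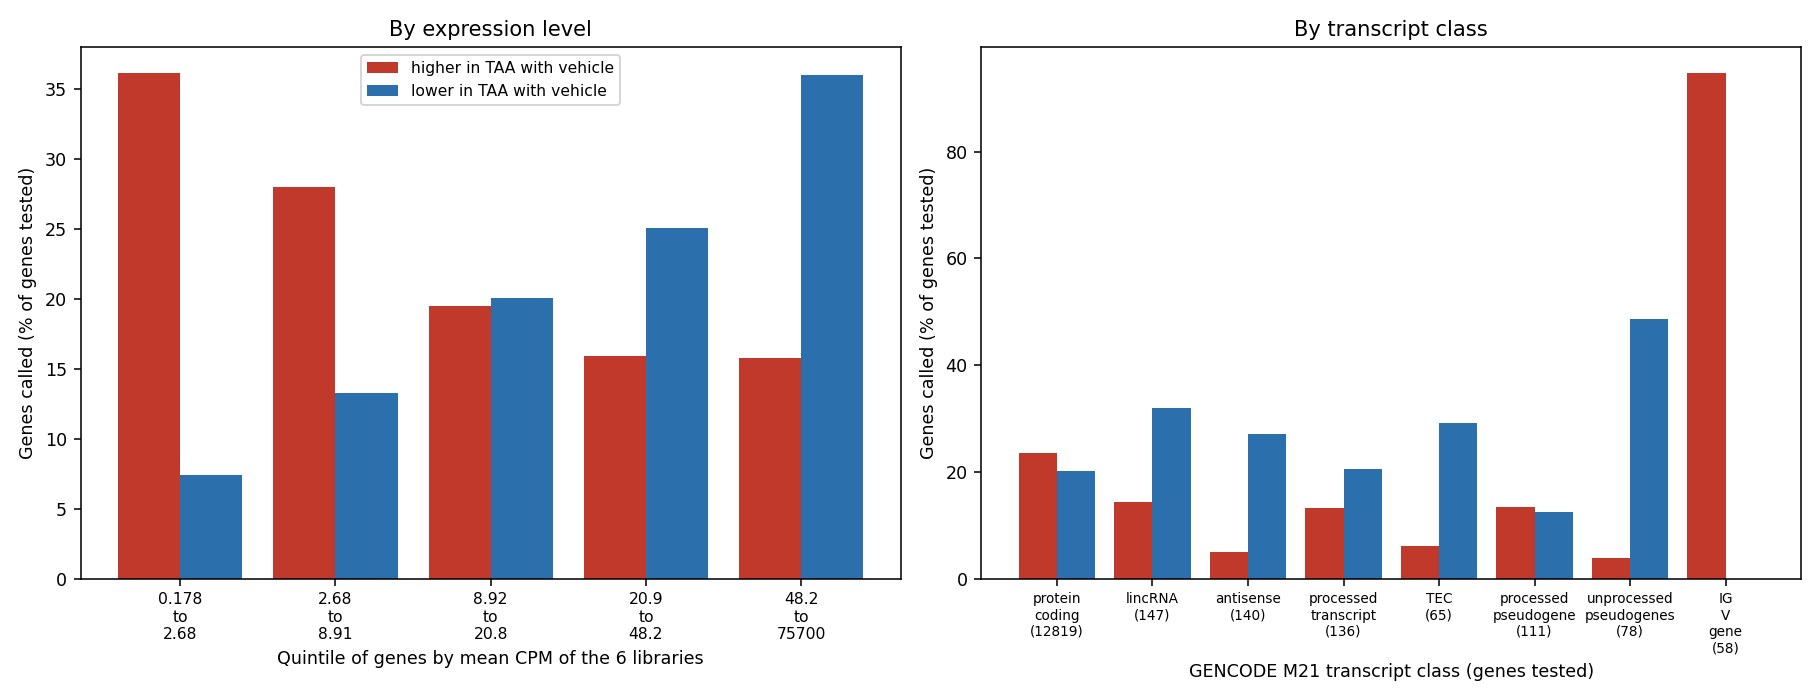
Share of tested genes called higher (red) or lower (blue) in TAA with vehicle than in control, by quintile of mean expression (left, with the CPM range of each quintile) and by transcript class (right, with the number of genes tested). The share of genes that were higher falls and the share that were lower climbs across the quintiles. Long non-coding and unprocessed pseudogene classes sit mostly on the lower side, and all calls shown are with TMM scaling.

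Long non-coding transcripts fell more often than they rose. Across the long non-coding classes together, 51 of 531 genes rose and 141 fell (9.6% and 26.6%, median log2 change -0.43), and with library-total scaling 82 rose and 87 fell. Among the 234 with no exon overlapping another gene, 20 rose and 67 fell. Whether reads were counted by strand is not given in the sources used here, so transcripts that overlap another gene, antisense ones above all, cannot be told apart from it. Unprocessed pseudogenes, copies made by gene duplication, fell in 38 of 78 cases and rose in 3 (10 rose and 27 fell with library-total scaling). Reads of such copies may be shared with their parent genes. Immunoglobulin V segments were the opposite extreme: 55 of 58 tested rose and none fell (94.8% and 0%), beside 23.1% and 20.4% of all genes. The class, 218 segments in all, held 0.000485 to 0.00105% of reads in control livers and 0.009 to 0.0243% in TAA livers. Segments could thus pass the filter on low counts through TAA livers alone and then had to rise. TAA library 1 held the largest share, and without it 43 rose. Malat1, an abundant nuclear RNA, measured 49.1, 74.4 and 127 CPM in TAA livers, against 238, 225 and 315 CPM in control livers (log2 change -1.63, SE 0.31, adjusted p = 0.00229). Firre, a nuclear RNA made from the X chromosome, measured 11.5, 11.5 and 11.1 CPM in TAA livers, against 28.4, 33.8 and 29.1 CPM in control livers (log2 change -1.42, SE 0.17, adjusted p = 0.000108). Both were lower in each TAA liver than in any control liver.

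Outside those 8 lists, genes were picked as the largest changes among those whose groups did not overlap, so the separation of the groups was part of the choice. The largest rises with at least 5 CPM in the higher group included genes with almost no reads in control livers. Gipc2 (chromosome 3, 152093533 to 152166230, GRCm38), a cytoplasmic PDZ-domain adaptor, measured 14.3, 8.66 and 9.81 CPM in TAA livers and had no read in any control liver. Against a floor of 3 counts over the control group it was at least 139-fold higher. Tinag (chromosome 9, 76951693 to 77045794), a basement membrane protein of kidney tubules, measured 7.96, 6.14 and 6.15 CPM in TAA livers and likewise had no control read, which makes it at least 85.2-fold higher. Scube3 and Scube1 encode secreted, membrane-attached glycoproteins with EGF-like repeats. Scube1 measured 15.9, 5.83 and 14.5 CPM in TAA livers, against 0, 0.258 and 0.408 CPM in control livers (log2 change 5.77, SE 0.66, adjusted p = 0.000103). Scube3 had a single control read, and its count ratio was 224 (95% interval 39.99 to 8894, counting error only). TAA library 2 was the lowest of the TAA livers for both.

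The desaturase Scd2 (chromosome 19, 44293676 to 44306864), the form of stearoyl-CoA desaturase best known from brain, combined a large change with a high level. It measured 448, 374 and 322 CPM in TAA livers, against 7.92, 9.64 and 8.25 CPM in control livers (log2 change 5.47, SE 0.22, adjusted p = 1.3e-07). Ccdc120, a centriole-associated protein, measured 23.2, 20.6 and 20.4 CPM in TAA livers, against 0.582, 0.775 and 0.735 CPM in control livers (log2 change 4.93, SE 0.27, adjusted p = 1.03e-06). Nrg1, the neuregulin ligand of ERBB receptors, was nearly uniform among TAA livers at 6.88, 7.25 and 7.14 CPM, against 0.145, 0 and 0.245 CPM in control livers (log2 change 5.66, SE 0.46, adjusted p = 9.44e-06). A further pair of rises was uneven: Sftpd, surfactant protein D, measured 27.5, 5.59 and 16 CPM in TAA livers, against 1.02, 0.0861 and 0.327 CPM in control livers, and the protease inhibitor Slpi measured 21.6, 6.33 and 6.85 CPM in TAA livers, against 0.0727, 1.12 and 0 CPM in control livers (adjusted p = 0.0011 and 0.0022). In both, TAA library 1 was the highest.

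Among the largest falls was Zbtb20 (chromosome 16, 42875881 to 43642602), a zinc finger repressor that in adult liver holds alpha-fetoprotein down. It measured 3.82, 5.04 and 4.35 CPM in TAA livers, against 97.8, 110.3 and 110.3 CPM in control livers (log2 change -4.59, SE 0.20, adjusted p = 2.18e-07), and neither group spread by more than 1.5-fold. Hsd3b5, a steroid-metabolising enzyme of male mouse liver, measured 0.108, 10.5 and 4.18 CPM in TAA livers, against 352, 357 and 416 CPM in control livers (log2 change -6.27, SE 1.32, adjusted p = 0.00802). TAA library 1 was close to 0 for Hsd3b5 and TAA library 2 the highest of its group. Nxpe2, of unsettled function, measured 0.376, 0 and 0.348 CPM in TAA livers, against 20.7, 20.9 and 23.4 CPM in control livers (log2 change -6.40, SE 0.44, adjusted p = 4.04e-06). Susd4, a complement-regulating membrane protein, measured 0.591, 3.26 and 2.32 CPM in TAA livers, against 46.8, 41.8 and 45.5 CPM in control livers (log2 change -4.46, SE 0.54, adjusted p = 0.000321). Eif4ebp3, a repressor of cap-dependent translation, measured 6.13, 8.48 and 10.6 CPM in TAA livers, against 115, 152 and 158 CPM in control livers (log2 change -4.08, SE 0.37, adjusted p = 5.06e-05), although a read-through gene shares its exons. Slc22a28, an organic anion transporter, and Capn8, a calpain protease, also fell (log2 changes -4.90 and -3.72).

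**Figure D2:**
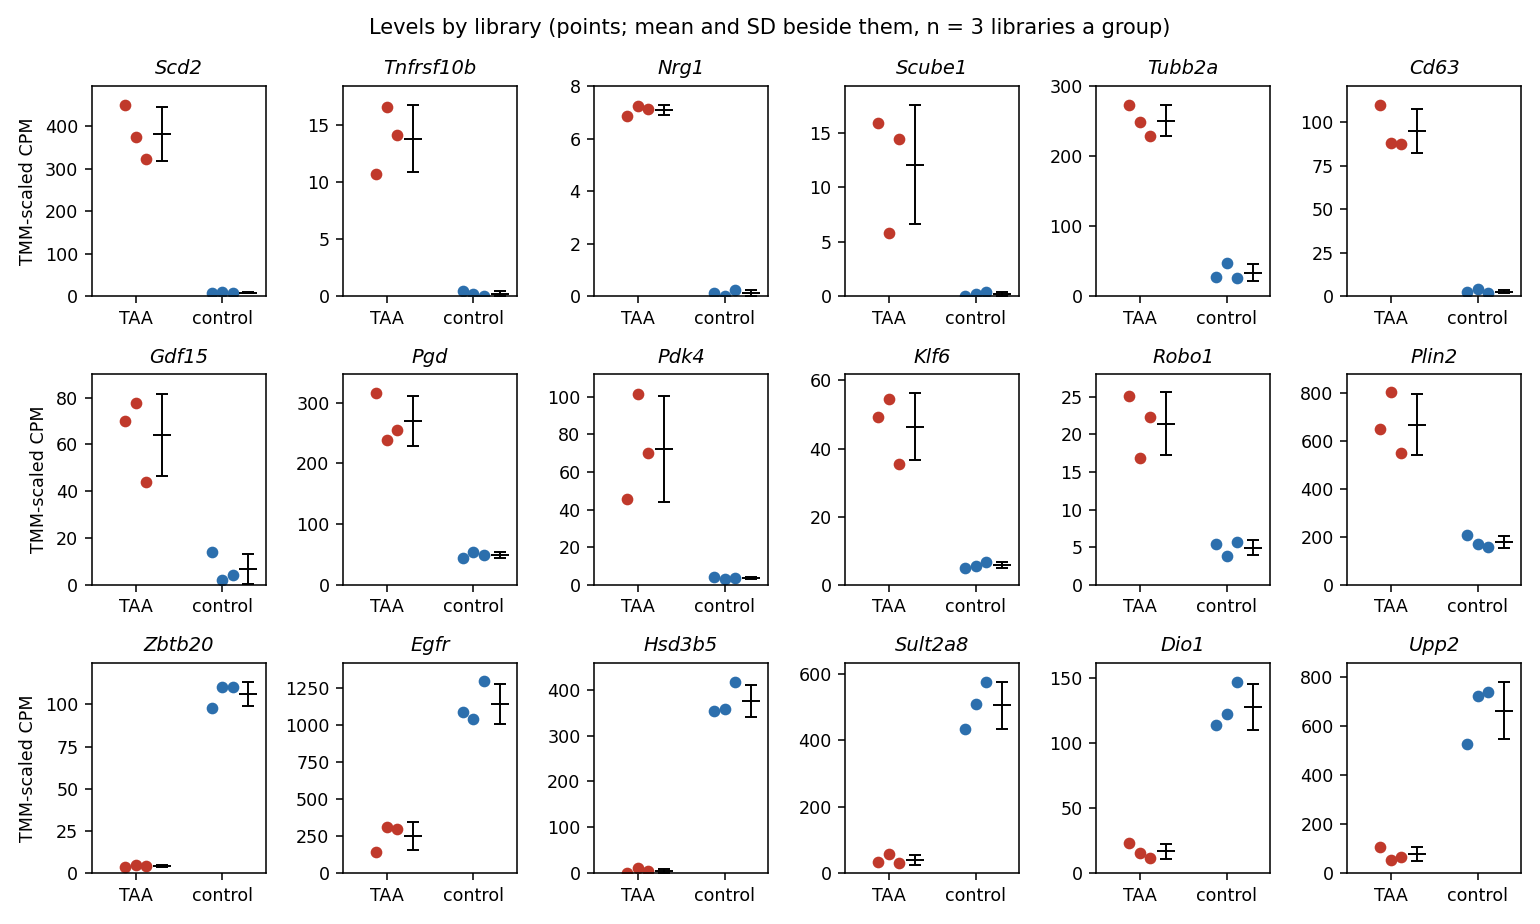
TMM-scaled CPM of 18 genes in each library (TAA with vehicle in red on the left, control in blue on the right; bars give mean and SD, n = 3 libraries a group, and each panel has its own axis from 0). The 12 genes of the upper rows are higher and the 6 of the lowest row lower in every TAA liver than in any control liver, with Scd2 at 322 to 448 CPM in TAA livers and 7.92 to 9.64 CPM in control livers.

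Membrane carriers as a family rose about as often as all genes and fell more often under both scalings. Of all genes 23.1% rose and 20.4% fell with TMM, and 42.0% and 8.44% with library totals. For the solute carriers, the largest family of membrane transporters, 56 of 248 tested rose and 71 fell (22.6% and 28.6%; median log2 change 0.00), and 101 rose and 45 fell with library-total scaling. Slc1a2, the glutamate transporter of hepatocytes next to the central vein, had the deepest fall of the family and measured 0.806, 0.307 and 0.464 CPM in TAA livers, against 179, 129 and 151 CPM in control livers (log2 change -8.14, SE 0.29, adjusted p = 4.49e-08). Sinusoidal uptake carriers also fell. Slc10a1, which takes up bile salts, measured 162, 177 and 177 CPM in TAA livers, against 598, 666 and 696 CPM in control livers (log2 change -1.93, SE 0.12, adjusted p = 2.29e-06). Slco1b2, which takes up organic anions, measured 179, 223 and 196 CPM in TAA livers, against 603, 580.1 and 521 CPM in control livers (log2 change -1.51, SE 0.12, adjusted p = 9.44e-06). All 3 were lower in every TAA liver. Rising carriers served other cargo. Slc48a1, which moves heme out of lysosomes, measured 239, 179 and 162 CPM in TAA livers, against 49.5, 48.5 and 39.9 CPM in control livers (log2 change 2.07, SE 0.16, adjusted p = 6.61e-06). Slc16a1, the lactate and pyruvate carrier MCT1, measured 93.8, 96.1 and 78.1 CPM in TAA livers, against 29.7, 29.1 and 29.8 CPM in control livers (log2 change 1.60, SE 0.12, adjusted p = 6.79e-06). Slc34a2, a phosphate carrier of epithelia, measured 9.41, 5.71 and 8.01 CPM in TAA livers, against 0.8, 0.344 and 0.571 CPM in control livers (log2 change 3.71, SE 0.34, adjusted p = 2.05e-05).

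Export pumps of the ABC family had shares near those of all genes: 9 of 40 tested rose and 9 fell (22.5% and 22.5%; median log2 change -0.05), and 16 rose and 3 fell with library-total scaling. Abcc4, which exports bile salts and nucleotides across the sinusoidal membrane, measured 98.5, 70.2 and 66.2 CPM in TAA livers, against 2.18, 1.89 and 1.71 CPM in control livers (log2 change 5.33, SE 0.29, adjusted p = 1.34e-06). Abcc6, the hepatocyte pump whose loss causes ectopic calcification, measured 40.1, 55.8 and 54.7 CPM in TAA livers, against 177, 191 and 187 CPM in control livers (log2 change -1.88, SE 0.14, adjusted p = 6.57e-06). Abcb10, a mitochondrial transporter that serves heme synthesis, measured 15.5, 20.6 and 19.9 CPM in TAA livers, against 58.6, 58.3 and 54.9 CPM in control livers (log2 change -1.62, SE 0.17, adjusted p = 4.13e-05). The 2 pumps that fell and the 1 that rose had no overlap between groups. Among ion channels, 13 of 26 calcium, sodium, chloride and TRP channel genes rose and 6 fell (50% and 23.1%), and 9 of 23 potassium channel genes rose and 4 fell (39.1% and 17.4%), beside 23.1% and 20.4% of all genes. With at least 50 counts in 3 libraries required, 7 and 2 rose. With library-total scaling the counts were 17 and 3, and 10 and 3. Ano1, a calcium-activated chloride channel of secretory epithelia, measured 11.2, 7.8 and 10.4 CPM in TAA livers, against 2.04, 1.72 and 3.35 CPM in control livers (log2 change 2.05, SE 0.30, adjusted p = 0.000325). Kcnn4, a calcium-activated potassium channel, measured 4.89, 2.21 and 5.05 CPM in TAA livers, against 0.509, 0.0861 and 0.245 CPM in control livers (log2 change 3.77, SE 0.53, adjusted p = 0.000276). Aqp8, a water channel of hepatocytes, measured 207, 183 and 164 CPM in TAA livers, against 39.7, 44.9 and 38.1 CPM in control livers (log2 change 2.17, SE 0.18, adjusted p = 9.29e-06). Aqp11, a water channel of the endoplasmic reticulum, fell by 1.08 on the log2 scale. The channel genes that rose were accompanied by the bile duct markers given above, whose part was not tested.

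Receptors that carry death and survival signals at the cell surface were often higher. Of the TNF receptor superfamily, 12 of 19 tested rose and 0 fell (median log2 change 1.28). These shares of 63.2% and 0% stood beside 23.1% and 20.4% of all genes, and 15 rose and 0 fell with library-total scaling. Without TAA library 1, 1 fell. Tnfrsf10b, the mouse death receptor for TRAIL, measured 10.7, 16.5 and 14.1 CPM in TAA livers, against 0.509, 0.258 and 0 CPM in control livers (log2 change 5.66, SE 0.44, adjusted p = 7.9e-06). Eda2r, the receptor of ectodysplasin A2, measured 18.9, 30.4 and 21.1 CPM in TAA livers, against 1.16, 0.344 and 0.571 CPM in control livers (log2 change 5.03, SE 0.33, adjusted p = 3.24e-06). Tnfrsf12a, the TWEAK receptor Fn14, measured 70.9, 63.9 and 42 CPM in TAA livers, against 8.07, 10.4 and 6.78 CPM in control livers (log2 change 2.81, SE 0.25, adjusted p = 2.33e-05). In Tnfrsf10b and Eda2r all TAA livers lay above 10 CPM and all control livers below 1.5 CPM. Leukocyte markers rose in the same livers, with TAA library 1 highest. That library was the lowest of the TAA livers for Tnfrsf10b and Eda2r and the highest for Tnfrsf12a, and the part of leukocytes in these rises was not tested.

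The EGF system moved both ways. Its main hepatocyte receptor Egfr measured 144, 311 and 299.7 CPM in TAA livers, against 1083, 1042 and 1293 CPM in control livers (log2 change -2.18, SE 0.28, adjusted p = 0.000192), with TAA library 1 lowest. The co-receptor Erbb2 measured 4.3, 3.87 and 6.33 CPM in TAA livers, against 1.31, 1.03 and 2.12 CPM in control livers (log2 change 1.69, SE 0.34, adjusted p = 0.00247). The ligand Tgfa measured 53.9, 52.1 and 41.7 CPM in TAA livers, against 31, 26 and 26.3 CPM in control livers (log2 change 0.83, SE 0.17, adjusted p = 0.00268). Over the 14 ligands and receptors of this family, 5 rose and 3 fell (35.7% and 21.4%), beside 23.1% and 20.4% of all genes. With library-total scaling 7 rose and 1 fell, beside 42.0% and 8.44% of all genes. Without TAA library 1 the number that rose was 3. Without TAA library 1 or control library 1, 1 fell. In the FGF system Fgf1, a growth factor without a signal peptide, measured 32.4, 44.9 and 37.8 CPM in TAA livers, against 182, 178 and 174 CPM in control livers (log2 change -2.21, SE 0.16, adjusted p = 4.34e-06). Its liver receptor Fgfr4 measured 32.7, 25.5 and 30.8 CPM in TAA livers, against 54.1, 59.4 and 58.7 CPM in control livers (log2 change -0.95, SE 0.14, adjusted p = 0.000285). The circulating hormone Fgf21 measured 4.25, 4.24 and 3.37 CPM in TAA livers, against 0.8, 0.689 and 0.163 CPM in control livers (log2 change 2.81, SE 0.53, adjusted p = 0.00172). Dusp6, a phosphatase that switches ERK off and that ERK induces, measured 146, 184 and 164 CPM in TAA livers, against 57.4, 54.8 and 45.6 CPM in control livers (log2 change 1.64, SE 0.14, adjusted p = 1.25e-05). Among MAP kinase phosphatases and RGS proteins, 11 of 28 tested rose and 2 fell (39.3% and 7.14%; median log2 change 0.64), and 16 rose and 2 fell with library-total scaling; with a filter of at least 50 counts in 3 libraries, 5 rose.

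Guidance molecules, first known from steering axons, included several of the rises. Of the Slit, Robo, netrin and Unc5 genes, 6 of 12 tested rose and 0 fell (50% and 0%; median log2 change 0.94), and 9 rose and 0 fell with library-total scaling. The receptor Robo1 measured 25.1, 16.9 and 22.2 CPM in TAA livers, against 5.38, 3.79 and 5.63 CPM in control livers (log2 change 2.11, SE 0.28, adjusted p = 0.000202). Robo2 measured 4.09, 3.32 and 5.63 CPM in TAA livers, against 1.31, 1.38 and 0.98 CPM in control livers (log2 change 1.82, SE 0.30, adjusted p = 0.000686). Their ligand Slit2 measured 3.28, 1.78 and 4.59 CPM in TAA livers against 0, 0.172 and 0 CPM in control livers, a count ratio of 61 (95% interval 16.6 to 508, counting error only). Netrin 1 (Ntn1) measured 24.8, 22.2 and 33.3 CPM in TAA livers, against 13.5, 10.7 and 12.7 CPM in control livers (log2 change 1.12, SE 0.17, adjusted p = 0.000487). Of semaphorins, plexins and neuropilins, 10 of 25 tested rose and 2 fell (40% and 8%; median log2 change 0.38), and 14 rose and 2 fell with library-total scaling. Sema4d, which many leukocytes carry, was uneven at 16.4, 5.65 and 8.3 CPM in TAA livers, against 0.8, 0.775 and 1.39 CPM in control livers (log2 change 3.35, SE 0.45, adjusted p = 0.00022), with TAA library 1 again the highest, and Sema4g, high in control liver, measured 152, 184 and 189 CPM in TAA livers, against 375, 351 and 347 CPM in control livers (log2 change -1.03, SE 0.16, adjusted p = 0.000557). Stellate cell markers rose in these libraries as well, and their part in the guidance genes was not tested.

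Tetraspanins organise proteins in membranes and vesicles. Cd63, a tetraspanin of late endosomes and exosomes, measured 109.5, 87.7 and 87.5 CPM in TAA livers, against 2.47, 4.05 and 2.04 CPM in control livers (log2 change 5.06, SE 0.25, adjusted p = 6.79e-07). Tspan8 measured 20.4, 11.1 and 26.2 CPM in TAA livers, against 1.02, 1.12 and 1.14 CPM in control livers (log2 change 4.13, SE 0.54, adjusted p = 0.00029). Tspan33 measured 7.2, 7.8 and 10.4 CPM in TAA livers, against 17.8, 22 and 19.7 CPM in control livers (log2 change -1.23, SE 0.20, adjusted p = 0.000601). Over the family, 12 of 24 tested rose and 3 fell (median log2 change 0.57). These shares of 50% and 12.5% stood beside 23.1% and 20.4% of all genes. With library-total scaling 15 rose and 2 fell, and without TAA library 1 the number that rose was 7.

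Filament and motor families of the cytoskeleton each had a larger share of tested members higher than the 23.1% of all genes (20.4% of all genes were lower). Keratins, the intermediate filaments of epithelia, rose in 6 of 7 cases under either scaling. Krt8 measured 543, 503 and 422 CPM in TAA livers, against 196, 197 and 190.1 CPM in control livers (log2 change 1.33, SE 0.14, adjusted p = 4.75e-05). Its partner Krt18 measured 453, 432 and 448 CPM in TAA livers, against 161, 173 and 158 CPM in control livers (log2 change 1.44, SE 0.11, adjusted p = 7.9e-06). Krt20 had no read in any control liver and 5.91, 2.27 and 2.44 CPM in TAA livers, at least 45.5-fold more. Of tubulins, the subunits of microtubules, 9 of 14 tested rose and 1 fell (64.3% and 7.14%; median log2 change 1.15), and 10 rose and 0 fell with library-total scaling. No tubulin fell when TAA library 1 or control library 2 was left out. Tubb2a measured 273, 249 and 229.5 CPM in TAA livers, against 28.4, 47.4 and 26.7 CPM in control livers (log2 change 2.88, SE 0.23, adjusted p = 8.79e-06). Tuba8 measured 17.3, 18.2 and 12.4 CPM in TAA livers, against 1.31, 0.344 and 1.71 CPM in control livers (log2 change 3.80, SE 0.36, adjusted p = 2.77e-05). No TAA liver overlapped a control liver in these genes.

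Of kinesins, which walk along microtubules, 14 of 32 tested rose and 2 fell (43.8% and 6.25%; median log2 change 0.97), and 18 rose and 2 fell with library-total scaling. Of myosins, which walk along actin, 15 of 25 tested rose and 2 fell (60% and 8%; median log2 change 0.54), and 19 rose and 1 fell with library-total scaling. A single myosin fell when TAA library 1 or control library 1 was left out. With at least 50 counts in 3 libraries required, 6 kinesins rose. Kif20a, a kinesin of dividing cells, measured 8.92, 6.39 and 6.68 CPM in TAA livers, against 0.945, 1.12 and 0.49 CPM in control livers (log2 change 3.10, SE 0.34, adjusted p = 5.79e-05), beside the rise of the markers of dividing cells. The non-muscle myosin heavy chain Myh9 measured 294, 299.6 and 326 CPM in TAA livers, against 154, 148 and 168 CPM in control livers (log2 change 0.97, SE 0.17, adjusted p = 0.00125). Among actin-binding and capping proteins 34 of 71 tested rose and 6 fell (47.9% and 8.45%; median log2 change 0.50), and 47 rose and 2 fell with library-total scaling. Filamin A (Flna), which cross-links actin, measured 70.8, 58.2 and 82.5 CPM in TAA livers, against 20.3, 17.3 and 15.8 CPM in control livers (log2 change 1.98, SE 0.19, adjusted p = 2.46e-05). Tpm1, a tropomyosin, measured 57.6, 52.4 and 48 CPM in TAA livers, against 21.7, 19.9 and 19.4 CPM in control livers (log2 change 1.37, SE 0.12, adjusted p = 1.42e-05). Pls1, a bundler of microvilli, measured 11.4, 4.91 and 8.3 CPM in TAA livers, against 0.218, 0.43 and 0.163 CPM in control livers (log2 change 4.90, SE 0.53, adjusted p = 5.83e-05). Markers of stellate and duct cells, which also hold these proteins, rose in the same livers, and their part was not tested.

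**Figure D3:**
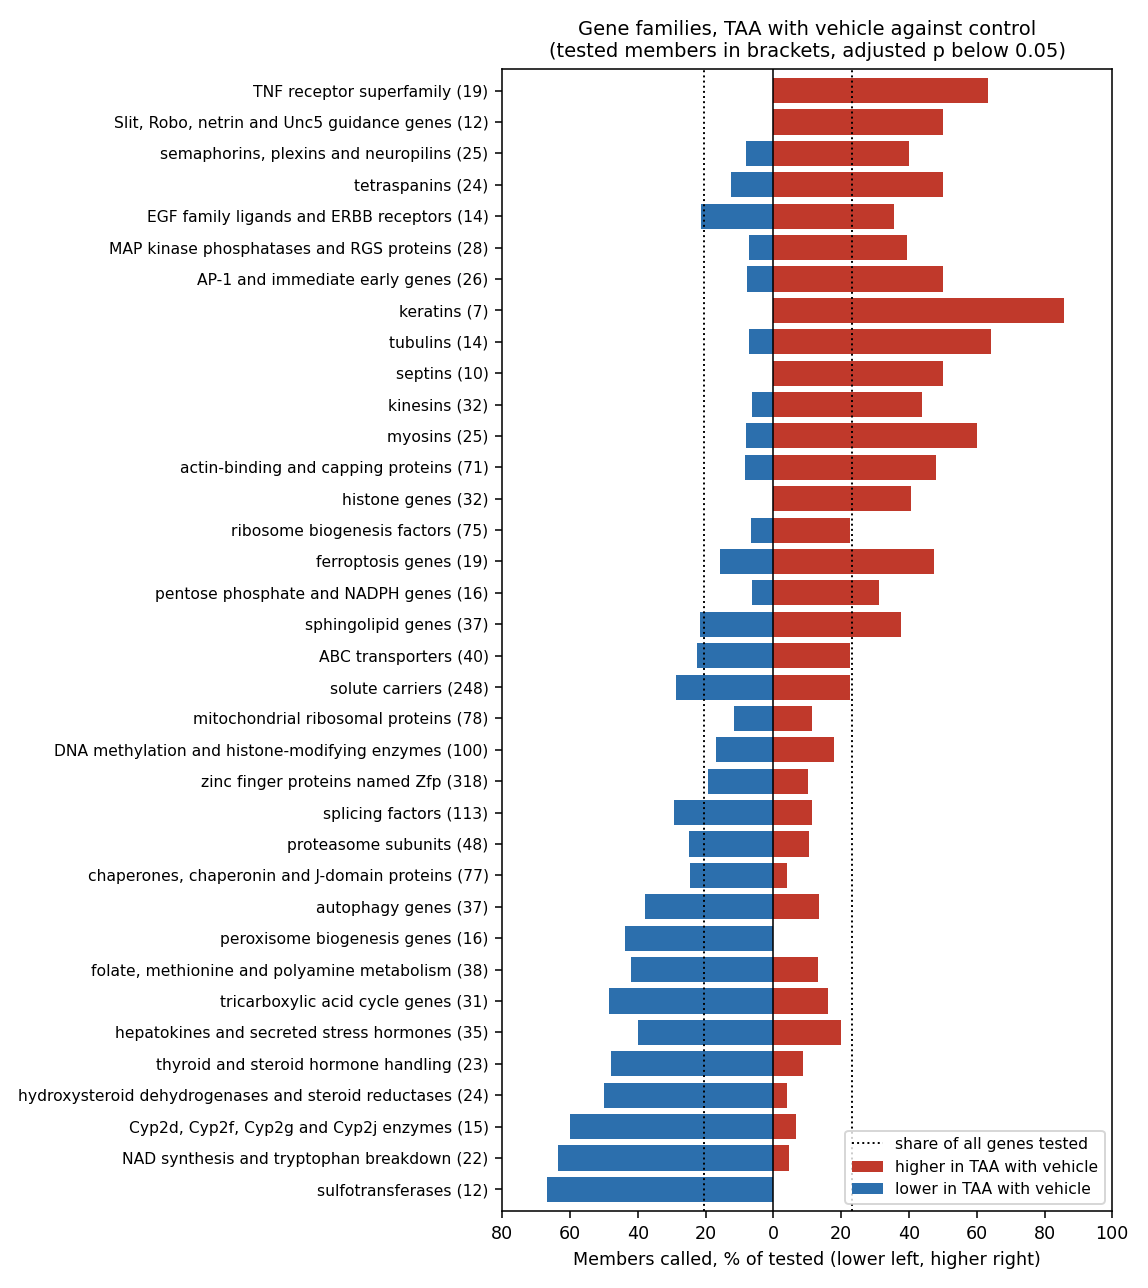
Share of each family's tested members called higher (red, to the right) or lower (blue, to the left) in TAA with vehicle than in control; the number of tested members is in brackets and the dotted lines mark the shares over all genes, 23.1% higher and 20.4% lower. Keratins, tubulins, TNF receptors and myosins lie farthest to the right, and sulfotransferases, NAD and tryptophan genes and the Cyp2d, Cyp2f, Cyp2g and Cyp2j enzymes farthest to the left.

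A joint list of AP-1 genes and of immediate early genes, the latter switched on within minutes of a stimulus, was often higher. Of AP-1 and immediate early genes, 13 of 26 tested rose and 2 fell (50% and 7.69%; median log2 change 1.09), and 19 rose and 1 fell with library-total scaling. Without TAA library 3, control library 1 or control library 2, 1 fell. Klf6, a zinc finger factor induced by injury, is counted with the KLF and SP genes and not in this list. It measured 49.3, 54.5 and 35.4 CPM in TAA livers, against 4.94, 5.51 and 6.69 CPM in control livers (log2 change 3.02, SE 0.30, adjusted p = 4.5e-05). Of the KLF and SP genes 5 of 19 tested rose and 3 fell (26.3% and 15.8%), beside 23.1% and 20.4% of all genes. With library-total scaling 10 rose and 1 fell. Without TAA library 1, 3 rose and 1 fell, and without control library 2, 3 rose. With at least 50 counts in 3 libraries required, 1 fell. Maff, a small Maf protein, measured 21.4, 23.3 and 14.9 CPM in TAA livers, against 4.43, 4.48 and 3.92 CPM in control livers (log2 change 2.21, SE 0.29, adjusted p = 0.000171). Jund, a Jun-family member of AP-1, measured 155, 172 and 133 CPM in TAA livers, against 70.2, 59.7 and 78 CPM in control livers (log2 change 1.14, SE 0.14, adjusted p = 0.000121). Each TAA liver was above each control liver.

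Single transcription factors moved in both directions. Mlxipl (ChREBP), which switches on lipid synthesis in response to glucose, measured 79.5, 98 and 114 CPM in TAA livers, against 293, 263 and 321 CPM in control livers (log2 change -1.59, SE 0.16, adjusted p = 3.18e-05). Hes6, an antagonist of Hes1, measured 20.00, 26.8 and 26.6 CPM in TAA livers, against 88.4, 109 and 104 CPM in control livers (log2 change -2.04, SE 0.20, adjusted p = 3.35e-05). Onecut2, a factor of liver development, measured 45, 47.8 and 52 CPM in TAA livers, against 127, 92.1 and 122 CPM in control livers (log2 change -1.24, SE 0.17, adjusted p = 0.000226). These groups did not overlap. The related Hes1, a Notch target, measured 9.89, 6.2 and 10.4 CPM in TAA livers, against 4.43, 2.58 and 3.59 CPM in control livers (log2 change 1.31, SE 0.29, adjusted p = 0.00392). Sox4, a factor of progenitor cells, measured 9.03, 6.51 and 11.2 CPM in TAA livers, against 2.76, 1.81 and 1.22 CPM in control livers (log2 change 2.19, SE 0.34, adjusted p = 0.00045). Zinc finger genes named Zfp, most of them repressors, had log2 changes of -4.04 to 4.29. Of these, 32 of 318 tested rose and 61 fell (10.1% and 19.2%, median log2 change -0.18). The share that fell was near the 20.4% of all genes, and the share that rose was below their 23.1%. With library-total scaling 82 rose and 19 fell. Of these genes 39 fell without control library 1 and 37 with at least 50 counts in 3 libraries required, and 21 rose without TAA library 3 or control library 2. Of histone genes 13 of 32 tested rose and 0 fell (40.6% and 0%; median log2 change 0.85), and 23 rose and 0 fell with library-total scaling. Without control library 1, 2 fell, and with at least 50 counts in 3 libraries required, 7 rose. The linker histone Hist1h1c measured 198, 201 and 183 CPM in TAA livers, against 59.2, 61.7 and 71.6 CPM in control livers (log2 change 1.60, SE 0.15, adjusted p = 2.29e-05). Reads of replication histone genes may be shared among near-identical copies.

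For several lists of RNA and protein handling the balance of the calls turned with the scaling. The place of a family against all genes hardly could, since the scaling shifts all genes by nearly the same amount. The median of splicing factors less that of all genes was -0.106 with TMM and -0.11 with library totals. For chaperones it was -0.138 and -0.142. Of splicing factors 13 of 113 tested rose and 33 fell (11.5% and 29.2%; median log2 change -0.10), and 46 rose and 7 fell with library-total scaling, so that the falls outnumbered the rises with TMM and the reverse held with library totals. Without control library 2, 7 rose. Those that fell under both included Rbm25, at 34.9, 36.7 and 38.4 CPM in TAA livers, against 65.4, 68.8 and 68.4 CPM in control livers (log2 change -0.88, SE 0.10, adjusted p = 7.83e-05), and Srsf11, at 31.1, 31.1 and 35.1 CPM in TAA livers, against 50.8, 61.2 and 57.9 CPM in control livers (log2 change -0.80, SE 0.12, adjusted p = 0.000482). Sf3b3, a core part of the U2 particle, measured 82.1, 91 and 91.5 CPM in TAA livers, against 45.9, 47.7 and 46.1 CPM in control livers (log2 change 0.92, SE 0.14, adjusted p = 0.000419). For ribosome biogenesis factors 17 of 75 tested rose and 5 fell (22.7% and 6.67%, median log2 change 0.15), beside 23.1% and 20.4% of all genes. With library-total scaling 49 rose and 0 fell. Without control library 2 or 3, 11 rose, and with upper-quartile scaling 26 rose. Mybbp1a, a nucleolar protein, measured 92.4, 122 and 104 CPM in TAA livers, against 52.6, 54.9 and 54.5 CPM in control livers (log2 change 0.97, SE 0.15, adjusted p = 0.000397). Among chaperones, the chaperonin and J-domain proteins 3 of 77 tested rose and 19 fell (3.9% and 24.7%; median log2 change -0.13), and 24 rose and 4 fell with library-total scaling. Without control library 1, 1 rose. Dnajc3, an inhibitor of the stress kinase PERK, measured 129, 156 and 119.5 CPM in TAA livers, against 279.95, 294 and 276 CPM in control livers (log2 change -1.07, SE 0.15, adjusted p = 0.000243). Dnajc1, a partner of BiP in the endoplasmic reticulum, measured 15.4, 14.7 and 14.3 CPM in TAA livers, against 39.9, 33.5 and 31.3 CPM in control livers (log2 change -1.24, SE 0.17, adjusted p = 0.000245).

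Of autophagy genes 5 of 37 tested rose and 14 fell (median log2 change -0.34). These shares of 13.5% and 37.8% stood beside 23.1% and 20.4% of all genes, and 9 rose and 5 fell with library-total scaling. The starter kinase Ulk2 measured 37.7, 40.8 and 36.2 CPM in TAA livers, against 98.6, 78.4 and 91.8 CPM in control livers (log2 change -1.23, SE 0.16, adjusted p = 0.000199). The conjugating enzyme Atg3 measured 44.6, 47.3 and 40.6 CPM in TAA livers, against 71.4, 90.2 and 83 CPM in control livers (log2 change -0.88, SE 0.13, adjusted p = 0.000365). The cargo receptor Optn measured 49.3, 58.5 and 56 CPM in TAA livers, against 103, 99.4 and 117 CPM in control livers (log2 change -0.96, SE 0.12, adjusted p = 0.000137). The cargo receptor Sqstm1 (p62) measured 679, 668 and 628 CPM in TAA livers, against 437, 441 and 447 CPM in control livers (log2 change 0.58, SE 0.10, adjusted p = 0.00133). Tfe3, a lysosome and autophagy transcription factor, measured 62.4, 56.1 and 54.9 CPM in TAA livers, against 31.3, 30.4 and 30.3 CPM in control livers (log2 change 0.92, SE 0.12, adjusted p = 0.000203). The first 3 were lower and the last 2 higher in every TAA liver, and these calls held with library-total scaling. Without TAA library 1 or control library 2, 3 autophagy genes rose. Among deubiquitinating enzymes, Usp2, a clock-linked enzyme, measured 11.2, 10.4 and 11.1 CPM in TAA livers, against 77.4, 55.5 and 61.1 CPM in control livers (log2 change -2.57, SE 0.15, adjusted p = 1.34e-06). Usp43 measured 5.05, 5.04 and 5.86 CPM in TAA livers, against 0.0727, 0.689 and 0.0816 CPM in control livers (log2 change 4.26, SE 0.53, adjusted p = 0.000119).

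Of genes of the pentose phosphate pathway and NADPH supply, 5 of 16 tested rose and 1 fell (31.2% and 6.25%; median log2 change 0.19), and 9 rose and 1 fell with library-total scaling. Without TAA library 2 or 3, 2 fell. G6pdx, the first enzyme of the pathway, measured 78.5, 35.2 and 39.2 CPM in TAA livers, against 4.22, 4.3 and 4.41 CPM in control livers (log2 change 3.56, SE 0.31, adjusted p = 2.48e-05), with TAA library 1 the highest. Pgd, its second dehydrogenase, measured 316, 238 and 256 CPM in TAA livers, against 44.6, 54.8 and 49.8 CPM in control livers (log2 change 2.44, SE 0.14, adjusted p = 1.48e-06). Tkt, which links the pathway to glycolysis, measured 395, 318 and 355 CPM in TAA livers, against 132, 151 and 159.7 CPM in control livers (log2 change 1.27, SE 0.13, adjusted p = 4.03e-05). Gclc, the rate-limiting enzyme of glutathione synthesis, measured 950.1, 727 and 653 CPM in TAA livers, against 153, 154 and 145 CPM in control livers (log2 change 2.37, SE 0.15, adjusted p = 2.45e-06). Txnrd1, cytosolic thioredoxin reductase, measured 344, 363 and 304 CPM in TAA livers, against 166, 172 and 178 CPM in control livers (log2 change 0.97, SE 0.12, adjusted p = 9.49e-05). Nfe2l2 (NRF2), the factor known to induce such genes, measured 149, 204 and 185 CPM in TAA livers, against 65.6, 68.4 and 62 CPM in control livers (log2 change 1.46, SE 0.15, adjusted p = 4.25e-05). Of the genes linked to ferroptosis, a death by lipid peroxidation, 9 of 19 tested rose and 3 fell (47.4% and 15.8%; median log2 change 0.59), and 12 rose and 1 fell with library-total scaling. The number that fell was 1 without TAA library 2, TAA library 3 or control library 3 and with upper-quartile scaling. Gpx4, which reduces lipid peroxides, measured 203, 202 and 249 CPM in TAA livers, against 90.2, 91.8 and 80.7 CPM in control livers (log2 change 1.31, SE 0.14, adjusted p = 4.03e-05). Ferritin heavy chain Fth1 measured 3617, 3487 and 4596 CPM in TAA livers, against 1519.6, 1676 and 1663 CPM in control livers (log2 change 1.27, SE 0.15, adjusted p = 7.56e-05).

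Tryptophan breakdown and NAD synthesis lay at the other end: 1 of 22 tested rose and 14 fell (4.55% and 63.6%; median log2 change -0.64), and 3 rose and 10 fell with library-total scaling. Without TAA library 2, 2 rose. Ido2, which opens the tryptophan ring, measured 19.8, 24.9 and 26.8 CPM in TAA livers, against 129, 122 and 132 CPM in control livers (log2 change -2.42, SE 0.17, adjusted p = 4.46e-06). Kynu, further down the same route, measured 96, 108 and 114 CPM in TAA livers, against 224, 257 and 248 CPM in control livers (log2 change -1.20, SE 0.12, adjusted p = 4.03e-05). Nmrk1, which starts NAD synthesis from nicotinamide riboside, measured 8.33, 10.01 and 15.4 CPM in TAA livers, against 39.4, 36.5 and 44.3 CPM in control livers (log2 change -1.83, SE 0.20, adjusted p = 6.04e-05). Nnmt, which methylates nicotinamide, measured 73.6, 64.6 and 64.4 CPM in TAA livers, against 215, 343 and 309 CPM in control livers (log2 change -2.10, SE 0.17, adjusted p = 1e-05). The 1 gene that rose was Sarm1, an NAD-cleaving enzyme, at 0.968, 2.46 and 1.68 CPM in TAA livers, against 0.509, 0.344 and 0.571 CPM in control livers (log2 change 1.81, SE 0.47, adjusted p = 0.00901). In all 5 genes the groups were apart, which follows largely from their choice by p.

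Of genes of folate, methionine and polyamine metabolism 5 of 38 tested rose and 16 fell (median log2 change -0.22). These shares of 13.2% and 42.1% stood beside 23.1% and 20.4% of all genes, and 14 rose and 8 fell with library-total scaling. Ahcy, which clears S-adenosylhomocysteine, measured 323, 308 and 270.4 CPM in TAA livers, against 859, 1038 and 988 CPM in control livers (log2 change -1.68, SE 0.16, adjusted p = 2.77e-05). Dmgdh, of choline breakdown, measured 346, 373 and 383 CPM in TAA livers, against 694, 654 and 639 CPM in control livers (log2 change -0.85, SE 0.11, adjusted p = 0.000148). The serine synthesis enzyme Psat1 measured 3.23, 2.21 and 1.92 CPM in TAA livers, against 0.218, 0.344 and 0.163 CPM in control livers (log2 change 3.31, SE 0.43, adjusted p = 0.000159). Smox, spermine oxidase, measured 6.72, 8.11 and 8.42 CPM in TAA livers, against 2.25, 2.15 and 2.53 CPM in control livers (log2 change 1.74, SE 0.23, adjusted p = 0.000207). Phgdh, the first step of serine synthesis, had 3.01, 1.78 and 2.26 CPM in TAA livers against 0.145, 0 and 0.0816 CPM in control livers, a count ratio of 29.8 (95% interval 9.97 to 147, counting error only). Both serine synthesis genes stayed below 4 CPM. Without control library 3, 3 genes of the list rose.

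Enzymes of pyrimidine breakdown were among the falls. Upp2, uridine phosphorylase, measured 109, 54.9 and 68.6 CPM in TAA livers, against 529, 726 and 739.7 CPM in control livers (log2 change -3.10, SE 0.29, adjusted p = 4e-05). Dpyd, the rate-limiting step of uracil and thymine breakdown, measured 133, 146 and 113 CPM in TAA livers, against 487, 446 and 521 CPM in control livers (log2 change -1.89, SE 0.16, adjusted p = 9.93e-06). Dpys, the next step, measured 82.3, 97.5 and 99.1 CPM in TAA livers, against 268, 245 and 283 CPM in control livers (log2 change -1.51, SE 0.12, adjusted p = 6.79e-06). Synthesis genes rose beside them: Impdh1, which commits purines to guanine nucleotides, measured 13, 13.1 and 9.4 CPM in TAA livers, against 2.47, 2.5 and 4.08 CPM in control livers (log2 change 1.97, SE 0.24, adjusted p = 0.000112). Ctps, which makes CTP, measured 22, 20.9 and 19.97 CPM in TAA livers, against 8.51, 7.66 and 7.35 CPM in control livers (log2 change 1.42, SE 0.21, adjusted p = 0.000369). Nt5e (CD73), a surface enzyme that makes adenosine, measured 44.6, 39.3 and 18.4 CPM in TAA livers, against 4.94, 3.1 and 3.76 CPM in control livers (log2 change 3.11, SE 0.43, adjusted p = 0.00056). Over the purine and pyrimidine list 10 of 41 tested rose and 13 fell (24.4% and 31.7%, median log2 change 0.02), beside 23.1% and 20.4% of all genes. With library-total scaling 19 rose and 10 fell. Without TAA library 2 or control library 2, 6 rose.

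Of tricarboxylic acid cycle genes and their regulators 5 of 31 tested rose and 15 fell (median log2 change -0.31). These shares of 16.1% and 48.4% stood beside 23.1% and 20.4% of all genes, and 7 rose and 5 fell with library-total scaling. The kinases that switch off pyruvate dehydrogenase moved apart. Pdk4 measured 45.4, 102 and 70.00 CPM in TAA livers, against 4.36, 3.27 and 3.59 CPM in control livers (log2 change 4.26, SE 0.56, adjusted p = 0.000582). Pdk1 measured 32.2, 34.1 and 39.5 CPM in TAA livers, against 89.3, 90.6 and 78.2 CPM in control livers (log2 change -1.29, SE 0.16, adjusted p = 0.000104). Pdk2 measured 71.5, 71.8 and 89.7 CPM in TAA livers, against 165, 171 and 175 CPM in control livers (log2 change -1.13, SE 0.13, adjusted p = 9.25e-05). The group ranges of all 3 kinases were apart. Citrate synthase (Cs), the entry enzyme of the cycle, measured 219, 241 and 219 CPM in TAA livers, against 143, 142 and 140.3 CPM in control livers (log2 change 0.67, SE 0.11, adjusted p = 0.000716). Among carbonic anhydrases Car2 measured 40.2, 57.2 and 60.1 CPM in TAA livers, against 3.49, 4.13 and 3.27 CPM in control livers (log2 change 3.85, SE 0.21, adjusted p = 8.17e-07). Mitochondrial Car5a measured 21.3, 18.1 and 20.3 CPM in TAA livers, against 87.4, 90.1 and 82.3 CPM in control livers (log2 change -2.12, SE 0.14, adjusted p = 3.1e-06). Car3, abundant in liver, measured 522, 696 and 774 CPM in TAA livers, against 1737, 1923 and 1821 CPM in control livers (log2 change -1.46, SE 0.17, adjusted p = 9.78e-05).

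Lipid genes also diverged. Plin2, the coat protein of lipid droplets, measured 649, 804 and 551 CPM in TAA livers, against 208, 172 and 157 CPM in control livers (log2 change 1.90, SE 0.26, adjusted p = 0.000276). Pnpla3, a droplet-bound lipase-like protein, measured 17.8, 9.83 and 12.8 CPM in TAA livers, against 0.872, 0.861 and 0.408 CPM in control livers (log2 change 4.22, SE 0.41, adjusted p = 3.1e-05). Hilpda, an inhibitor of droplet lipolysis, measured 8.71, 11.9 and 8.47 CPM in TAA livers, against 1.53, 1.72 and 1.8 CPM in control livers (log2 change 2.52, SE 0.36, adjusted p = 0.000294). Dgat2, the last step of triglyceride synthesis, measured 323, 327 and 379 CPM in TAA livers, against 702, 752 and 640.1 CPM in control livers (log2 change -1.02, SE 0.12, adjusted p = 8e-05). Mgll, which cuts monoglycerides, measured 95.1, 97 and 102 CPM in TAA livers, against 259, 232 and 205 CPM in control livers (log2 change -1.24, SE 0.13, adjusted p = 4.49e-05). Fabp1, the liver fatty acid-binding protein, measured 816, 1573 and 1015 CPM in TAA livers, against 2984, 3469 and 3022 CPM in control livers (log2 change -1.48, SE 0.23, adjusted p = 0.000573). Plin2, Pnpla3 and Hilpda were higher, and Dgat2, Mgll and Fabp1 lower, in every TAA liver. Over the droplet, lipase and fatty acid-binding list 11 of 34 tested rose and 13 fell (median log2 change -0.29). These shares of 32.4% and 38.2% stood beside 23.1% and 20.4% of all genes, and 12 rose and 9 fell with library-total scaling. For sphingolipid genes 14 of 37 tested rose and 8 fell (37.8% and 21.6%; median log2 change 0.19), and 23 rose and 2 fell with library-total scaling. Sptlc2, of the first step of their synthesis, measured 55.9, 43.3 and 40.9 CPM in TAA livers, against 20.6, 17.1 and 22.1 CPM in control livers (log2 change 1.23, SE 0.16, adjusted p = 0.000142). Peroxisome biogenesis genes had no rise with TMM, as 0 of 16 tested rose and 7 fell (0% and 43.8%, median log2 change -0.34). With library-total scaling 4 rose and 0 fell. Their median less that of all genes was -0.346 with TMM and -0.353 with library totals, a difference that the scaling hardly touches.

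In 3 of 4 enzyme families that act on steroids and small hydrophobic molecules, falls outnumbered rises under both scalings, and in the aldo-keto reductases rises outnumbered falls under both. Of sulfotransferases 0 of 12 tested rose and 8 fell (median log2 change -1.16). These shares of 0% and 66.7% stood beside 23.1% and 20.4% of all genes, and 3 rose and 5 fell with library-total scaling. Without TAA library 2, 3 rose, and without any 1 control library, 2 rose. Sult2a8, a bile acid sulfotransferase of mouse liver, measured 33.7, 58.3 and 30.3 CPM in TAA livers, against 433, 508 and 574 CPM in control livers (log2 change -3.63, SE 0.28, adjusted p = 1.15e-05). Sult1b1 and Sult1d1 fell by 1.36 and 1.16 on the log2 scale. Of hydroxysteroid dehydrogenases and steroid reductases 1 of 24 tested rose and 12 fell (4.17% and 50%; median log2 change -0.52), and 5 rose and 6 fell with library-total scaling. Without TAA library 1, TAA library 2 or control library 2, 2 rose. The steroid 5-alpha-reductase Srd5a1 measured 45.4, 60.6 and 64.3 CPM in TAA livers, against 149, 185 and 160.3 CPM in control livers (log2 change -1.54, SE 0.16, adjusted p = 4.5e-05). Dhrs9, the 1 that rose, measured 14.3, 14.8 and 12.8 CPM in TAA livers, against 1.24, 0.43 and 1.71 CPM in control livers (log2 change 3.61, SE 0.35, adjusted p = 3.18e-05). Of Cyp2d, Cyp2f, Cyp2g and Cyp2j enzymes 1 of 15 tested rose and 9 fell (6.67% and 60%; median log2 change -0.80), and 1 rose and 6 fell with library-total scaling. Without TAA library 1, TAA library 3, control library 1 or control library 2, 0 rose. Cyp2j5, an epoxygenase of arachidonic acid, measured 166, 175 and 158 CPM in TAA livers, against 605, 680.4 and 697 CPM in control livers (log2 change -1.99, SE 0.13, adjusted p = 3.1e-06). Reads of the Cyp2d, Hsd3b, Akr1c and Sult2a genes may be shared between near-identical copies. Of aldo-keto reductases 6 of 15 tested rose and 4 fell (40% and 26.7%; median log2 change 0.46), and 8 rose and 2 fell with library-total scaling. Without control library 1, 3 of these rose and 4 fell, and without TAA library 1 or 3 or control library 3 the number that fell was 2. Akr1d1, which reduces bile acid precursors, measured 89.8, 67.3 and 85.8 CPM in TAA livers, against 161, 158 and 169.97 CPM in control livers (log2 change -1.01, SE 0.13, adjusted p = 0.000138). Akr1c18, a progesterone-reducing enzyme, measured 13.3, 6.08 and 8.36 CPM in TAA livers, against 0.218, 0.0861 and 0 CPM in control livers (log2 change 6.34, SE 0.72, adjusted p = 0.000116).

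Falls also outnumbered rises under both scalings among the thyroid and steroid hormone genes, of which 2 of 23 tested rose and 11 fell. These shares of 8.7% and 47.8% (median log2 change -0.63) stood beside 23.1% and 20.4% of all genes. With library-total scaling 4 rose and 6 fell. Dio1, which makes active thyroid hormone in liver, measured 23.1, 15.6 and 11.6 CPM in TAA livers, against 114, 122 and 147 CPM in control livers (log2 change -2.93, SE 0.30, adjusted p = 6.29e-05). Thrsp, a thyroid-responsive regulator of lipid synthesis, measured 243, 182 and 274 CPM in TAA livers, against 762, 1005 and 1269 CPM in control livers (log2 change -2.12, SE 0.26, adjusted p = 0.000146). The growth hormone receptor Ghr measured 131, 158 and 144 CPM in TAA livers, against 393, 424 and 429 CPM in control livers (log2 change -1.52, SE 0.13, adjusted p = 1.26e-05). Thyroxine-binding globulin (Serpina7) measured 72.4, 122 and 52.2 CPM in TAA livers, against 19.3, 35 and 16.9 CPM in control livers (log2 change 1.80, SE 0.36, adjusted p = 0.00358). Of hepatokines and secreted stress hormones 7 of 35 tested rose and 14 fell (20% and 40%; median log2 change -0.29), and 11 rose and 10 fell with library-total scaling. Gdf15, a stress hormone that lowers appetite, measured 70.2, 77.7 and 44.1 CPM in TAA livers, against 14.2, 2.07 and 4.33 CPM in control livers (log2 change 3.20, SE 0.60, adjusted p = 0.00375), with control library 1 well above the other 2 control livers. Inhbc, an activin subunit of hepatocytes, measured 30.00, 36.8 and 36.4 CPM in TAA livers, against 86.9, 98.3 and 75.6 CPM in control livers (log2 change -1.34, SE 0.18, adjusted p = 0.000209). The activin-binding Fstl3 measured 3.66, 1.6 and 3.48 CPM in TAA livers, against 0.218, 0.0861 and 0.163 CPM in control livers (log2 change 4.13, SE 0.52, adjusted p = 0.000142).

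Several enzymes and other proteins have paralogues, listed here in pairs as a hepatocyte form and another form. That listing was not tested. Such paralogues were compared by CPM per kilobase of transcript, so that levels of different genes can be set side by side. Stearoyl-CoA desaturase Scd1 averaged 1848 CPM per kb in TAA livers and 2019 in control livers and did not pass the test (log2 change -0.13, adjusted p = 0.778), whereas Scd2 averaged 69.9 CPM per kb in TAA livers and 1.58 in control livers. Scd2 thus stayed far below Scd1 in both groups. Abcc6 averaged 8.06 CPM per kb in TAA livers and 29.7 in control livers, and Abcc1 averaged 0.433 CPM per kb in TAA livers and 0.104 in control livers (log2 change 2.05, SE 0.30, adjusted p = 0.000321). In both of these pairs the hepatocyte form remained the more abundant. Of the 24 pairs with both forms tested, the hepatocyte form averaged above its partner in 20 in TAA livers and in 23 in control livers. The exceptions were Shmt1 in both groups and Acacb, Aqp9 and Irs2 in TAA livers. Shmt1 was below its partner in control livers too, so the listed hepatocyte form need not be the main form in liver. Acacb and Irs2 did not pass the test (adjusted p = 0.0796 and 0.744), and the fall of Aqp9 was lost with library-total scaling. Whether the order within pairs changed was not tested. Slc2a2 and Fabp1 are each counted with different partners.

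Arginase 1 (Arg1) averaged 673 CPM per kb in TAA livers and 1273 in control livers (log2 change -0.92, SE 0.17, adjusted p = 0.00164). Arg2 averaged 0.94 CPM per kb in TAA livers and 0.0551 in control livers (count ratio 17.6, 95% interval 5.78 to 87.1, counting error only, adjusted p = 0.00914), and most of its TAA reads were in TAA library 1. Liver glycogen phosphorylase (Pygl) averaged 74.7 CPM per kb in TAA livers and 112 in control livers (log2 change -0.58, SE 0.17, adjusted p = 0.0176), a fall lost with library-total scaling (log2 change -0.18) and without TAA library 1 or control library 3. Brain glycogen phosphorylase (Pygb) averaged 3.85 CPM per kb in TAA livers and 0.887 in control livers (log2 change 2.12, SE 0.22, adjusted p = 4.65e-05). Mat1a, the hepatocyte methionine adenosyltransferase, averaged 721 CPM per kb in TAA livers and 1393 in control livers (log2 change -0.95, SE 0.20, adjusted p = 0.00275), and the change of its counterpart Mat2a was -0.12 (adjusted p = 0.739).

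**Figure D4:**
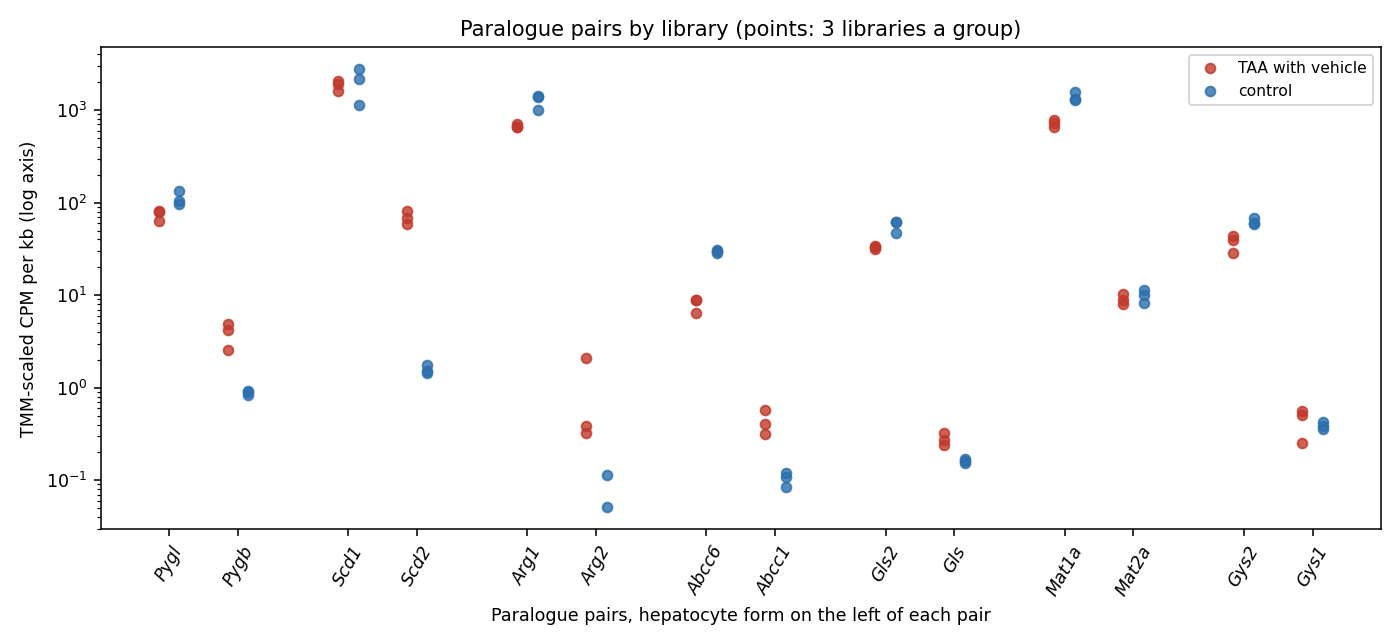
TMM-scaled CPM per kilobase (log axis) of 7 paralogue pairs, chosen after their values were seen, the hepatocyte form on the left of each pair, with TAA with vehicle in red left of control in blue and 1 point for each of the 3 libraries a group. Library values at 0 cannot be drawn on the log axis, which leaves out 1 control library of Arg2; Scd2, Pygb, Arg2 and Abcc1 lie higher in TAA livers, and the hepatocyte form of each of these 7 pairs stays above its partner.

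Several long non-coding transcripts contain microRNA hairpins in their exons. Messenger libraries do not measure mature microRNAs, so only the host transcripts were read. The sequences show the seeds (bases 2 to 8, in capitals, the part that pairs with target messages) of hairpins in those hosts. The hairpin of miR-34a lies only in part in its listed transcript Gm37795, which as annotated is not shown to yield this seed. Mature sequences and hairpin positions are from RefSeq (GRCm38).
mmu-miR-34a-5p: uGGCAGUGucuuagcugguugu
mmu-miR-675-5p: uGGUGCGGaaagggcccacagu
mmu-miR-22-3p: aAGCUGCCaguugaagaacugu
mmu-miR-101a-3p: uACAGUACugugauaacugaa
mmu-miR-16-5p: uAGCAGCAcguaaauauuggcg
mmu-miR-29b-3p: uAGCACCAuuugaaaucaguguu
mmu-miR-29c-3p: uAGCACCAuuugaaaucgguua
mmu-miR-17-5p: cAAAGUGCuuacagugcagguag
mmu-miR-20a-5p: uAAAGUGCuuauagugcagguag
The 9 sequences carry 7 seeds, since miR-29b-3p shares AGCACCA with miR-29c-3p and miR-17-5p shares AAAGUGC with miR-20a-5p.

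The 17 tested non-coding hosts hold 29 hairpins in whole or in part. Of these hosts 3 rose and 7 fell (17.6% and 41.2%). These counts are given with TMM alone, and not every called host is described below. The shares were 9.6% and 26.6% in the long non-coding classes together and 23.1% and 20.4% over all genes. The hosts named here other than Gm37795, H19 and Mir22hg were chosen after their values were seen. Gm37795, whose start overlaps the hairpin of miR-34a in part (chr4:150068454-150068555, plus strand), measured 4.41, 7.49 and 6.21 CPM in TAA livers, against 0.363, 0.172 and 0 CPM in control livers (log2 change 4.97, SE 0.55, adjusted p = 5.98e-05). H19, the imprinted host of miR-675, measured 2.8, 0.491 and 1.45 CPM in TAA livers, against 0.291, 0.0861 and 0 CPM in control livers (log2 change 3.52, SE 0.92, adjusted p = 0.01), with TAA library 1 the highest. Mir22hg, whose exon holds miR-22 (chr11:75463716-75463810, plus strand), measured 6.24, 5.4 and 5.46 CPM in TAA livers, against 27.1, 21.2 and 21.9 CPM in control livers (log2 change -2.04, SE 0.20, adjusted p = 2.86e-05). These groups did not overlap.

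E130102H24Rik, the host of miR-101a (chr4:101346945-101347027, minus strand), measured 1.4, 1.47 and 1.04 CPM in TAA livers, against 3.93, 3.19 and 3.59 CPM in control livers (log2 change -1.45, SE 0.32, adjusted p = 0.00436). Dleu2, the host of miR-16-1 (chr14:61631880-61631972, minus strand), measured 6.02, 4.42 and 3.37 CPM in TAA livers, against 9.81, 11.7 and 10.4 CPM in control livers (log2 change -1.20, SE 0.29, adjusted p = 0.00593). A330023F24Rik, the host of miR-29b-2 and miR-29c, measured 0.914, 1.6 and 1.04 CPM in TAA livers, against 4.94, 2.24 and 3.43 CPM in control livers (log2 change -1.58, SE 0.49, adjusted p = 0.0218). Mir17hg, the host of the miR-17 cluster, measured 0.753, 0.798 and 0.697 CPM in TAA livers, against 1.82, 1.64 and 2.04 CPM in control livers (log2 change -1.28, SE 0.42, adjusted p = 0.0281). The falls of A330023F24Rik and Mir17hg were lost with library-total scaling (log2 change -1.20 and -0.89). That of A330023F24Rik was also lost without TAA library 1 or 3 or control library 1, and that of Mir17hg without any 1 library other than control library 2.

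The 4 tested genes of the Y chromosome and X-inactivation list are all Y-linked, and all 4 fell (3 with library-total scaling). Eif2s3y, a translation initiation factor subunit, measured 6.83, 8.17 and 10.9 CPM in TAA livers, against 26.4, 34.4 and 38.3 CPM in control livers (log2 change -1.93, SE 0.20, adjusted p = 3.66e-05). Kdm5d, a histone H3 demethylase, measured 7.9, 8.35 and 9.06 CPM in TAA livers, against 15.3, 20.4 and 20.2 CPM in control livers (log2 change -1.14, SE 0.16, adjusted p = 0.000226). Ddx3y, an RNA helicase, measured 11.9, 17.6 and 13.1 CPM in TAA livers, against 34.5, 39.9 and 20.5 CPM in control livers (log2 change -1.16, SE 0.27, adjusted p = 0.00651). Uty, a demethylase homologue, measured 4.73, 7 and 4.47 CPM in TAA livers, against 10.03, 9.13 and 8.65 CPM in control livers (log2 change -0.78, SE 0.21, adjusted p = 0.012), a fall lost with library-total scaling (log2 change -0.39). All 6 libraries held Y-linked reads, 583, 670 and 647 in TAA livers against 1187, 1206 and 1074 in control livers. Xist, the RNA of the inactive X chromosome, had 1, 5 and 1 reads in TAA livers and none in control livers.

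Each of these genes has a close X-linked homologue, and the ratio of the 2 counts within a library does not depend on scaling. The homologues were added after the Y-linked values were seen. Eif2s3y over Eif2s3x was 0.233, 0.288 and 0.539 in TAA livers, against 1.08, 1.29 and 1.42 in control livers. Kdm5d over Kdm5c was 0.141, 0.114 and 0.149 in TAA livers, against 0.224, 0.343 and 0.342 in control livers. Ddx3y over Ddx3x was 0.0778, 0.101 and 0.108 in TAA livers, against 0.167, 0.233 and 0.121 in control livers. Uty over Kdm6a was 0.384, 0.412 and 0.453 in TAA livers, against 0.767, 0.707 and 0.684 in control livers. The groups did not overlap in any of the 4 ratios, and the two-sided exact permutation p was 0.1 for each, the smallest that 3 libraries against 3 can give. None of the X-linked homologues passed the test with TMM (log2 changes -0.00 for Eif2s3x, 0.02 for Kdm5c, -0.28 for Ddx3x and 0.02 for Kdm6a).

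**Figure D5:**
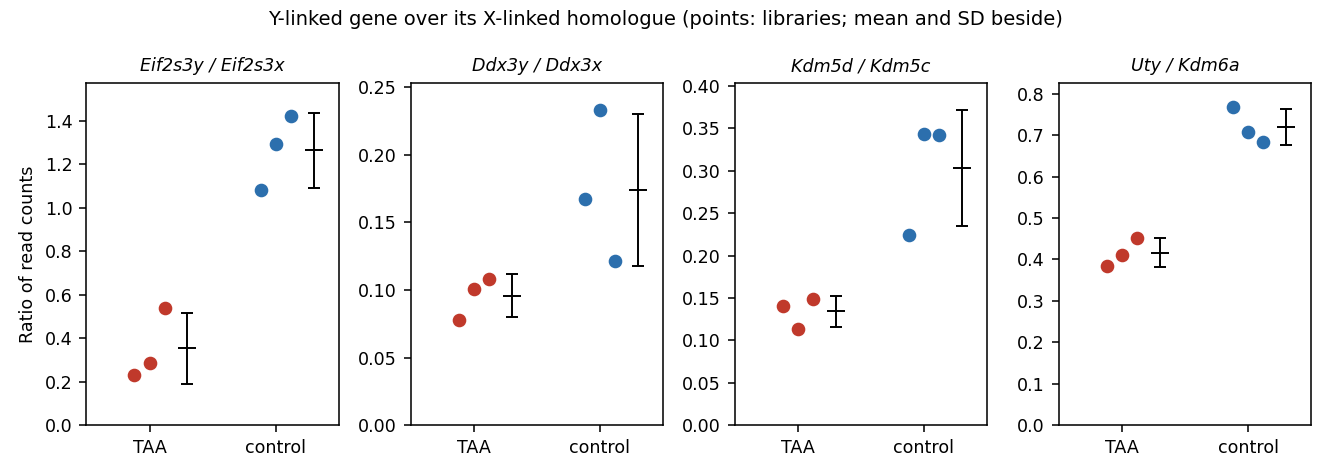
Ratio of the read count of a Y-linked gene to that of its X-linked homologue in each library (TAA with vehicle in red on the left, control in blue on the right; bars give mean and SD, n = 3 libraries a group). In all 4 pairs the 3 TAA livers lie below the 3 control livers, for Eif2s3y at 0.233 to 0.539 in TAA livers against 1.08 to 1.42 in control livers.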

How the data were processed

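Total RNA was taken from whole livers, messenger RNA was separated and libraries were sequenced, per the labels' protocols. The submitters' processing notes name HISAT2 2.0.4, StringTie 1.3.0 and the mm10 and GRCm38.p4 builds. The authors deposited 1 table of raw read counts per gene beside FPKM. Which tool counted the reads, and whether by strand, is not given in the sources used here, and 48 of the 162 genes named have an exon that overlaps another annotated gene. The deposited FPKM, fragments scaled to gene length and library size, lay within 0.00311% of the count divided by length and library total, so they were used only for gene lengths. Of the 34745 genes 14460 had no read in any library, and 27 symbols stored as dates were restored from their Ensembl IDs through GENCODE M21, which also gave transcript classes and exon overlaps. Coordinates are those of the deposited table. Promoter and protein sequences were not used, and mature microRNA sequences are from RefSeq (GRCm38.p6).

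Counts were tested with edgeR 4.0.16 (R 4.3.3) by the quasi-likelihood F-test with TMM scaling, on genes kept by its filter at a minimum count of 10, with Benjamini-Hochberg adjustment and a threshold of 0.05. All 9 libraries, with the 3 of TAA and sulodexide, shared the estimate of the spread, and edgeR's glmTreat tested the 2-fold change. TMM factors were 1.081 to 1.185 in TAA libraries and 0.8209 to 0.9191 in control libraries. Levels are TMM-scaled CPM. Counts were also simulated over 13106 genes, with 50 genes changed at each fold and all others kept equal. There 10% of genes changed 1.5-fold, 52% of those changed 2-fold, 78% of those changed 4-fold and 94% of those changed 8-fold were called, with 4.88% false calls. Far more genes were called in the real libraries, so these rates do not give the recovery or the false calls of this comparison. Intervals of count ratios and floors cover counting error only.

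Members and gene lists were chosen with earlier results of these data known. Families were built from symbol patterns, and 33 genes that belong elsewhere and 226 that are not protein coding were removed after values were seen. Named genes are the 15 largest rises and falls outside the 8 lists of commonly described genes that reached 5 CPM on average in 1 group and whose groups did not overlap, up to 4 genes a direction per family by p with at least 1 CPM, the paralogue pairs, and Y-linked and X-inactivation genes. Some of them are not reported here. DESeq2 1.42.0, limma 3.58.1 (voom), other scalings, other filters, the 6 libraries alone, a replicate block and leaving out each library were the alternatives.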

Additional observations from a re-analysis of the deposited data

How the results depend on the processing

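No gene called higher was called lower, or the reverse, under any alternative run. The counts of calls turned on the scaling: with library totals 5756 genes were higher and 1156 lower, and past 2-fold 1601 were higher and 200 lower, against 3161, 2792, 909 and 360 with TMM. All 3161 rises and 1156 of the 2792 falls were kept there. RLE scaling, upper-quartile scaling, DESeq2, limma-voom, no filter, and the 6 libraries alone gave 2979 to 3627 higher and 2282 to 2875 lower. Requiring 50 counts in 3 libraries gave 2397 higher, 2347 lower and 547 past 2-fold higher, over fewer genes. Leaving out 1 library at a time gave 2594 to 3113 higher, 2236 to 2603 lower, 651 to 1128 past 2-fold higher and 285 to 367 past 2-fold lower. The labels do not say whether equal replicate numbers mark a shared litter, cage or day. Deviations of TAA and control libraries of the same number correlated at 0.0362, -0.0302 and 0.0247 across genes, which cannot settle this in such small groups. The fit with a replicate block gave 3022 higher and 2744 lower (843 and 377 past 2-fold). Of 162 genes named, 155 had the same call in every setting, and none reversed. The naming rule gives 651 genes, of which 143 lost their call in at least 1 setting, so the share among the genes named says nothing of the rest. The others were Kdr, Pygl, Uty, A330023F24Rik, Mir17hg, Aqp9 (lost with library totals) and Acacb (gained with DESeq2 and with the 6 libraries alone), and Kdr was also lost with upper-quartile scaling, the stricter filter and the replicate block. Of 178 family counts, 112 moved by over 1.5 times with library totals, and 94 stayed within that in every other setting. Depth limits genes with few reads in 1 group, such as Arg2, Phgdh and Slit2 in control livers. The cause of the differences between settings was not tested, apart from fewer genes or libraries entering a fit.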
